A study of Homo sapiens with 6 samples.

Results

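The genes described here make, load and control MHC class I molecules, the surface proteins that show peptides from inside a cell to CD8+ T cells. They were chosen by name from the deposited gene table: the alpha chains HLA-B, HLA-C, HLA-E and HLA-F, the light chain B2M, the peptide transporter subunits TAP1 and TAP2, the loading factor TAPBP (tapasin) and the transcriptional coactivator NLRC5. All 9 were found among the 35974 genes of the table. RNA came from SU-DHL-8, an established line of diffuse large B-cell lymphoma (DLBCL) labelled as DNMT1 wild type, in 3 libraries treated with the solvent DMSO and 3 treated with GSK3685032, an inhibitor of the maintenance DNA methyltransferase DNMT1. The sources used here give neither dose nor duration, and do not say whether replicates were separate cultures, so p-values cover no more than differences among the 6 libraries, and these may be technical. In the treatment field, GSK3685033 stands for inhibitor replicate 2 and GSK3685034 for replicate 3, whereas the series design names GSK3685032 alone. The 3 were kept as 1 group by their titles, and member calls that differ with inhibitor replicate 1 alone are given beside the result.

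A class I molecule is a polymorphic alpha chain paired with beta-2-microglobulin and a short peptide. Peptides are cut by the proteasome, carried into the endoplasmic reticulum by the TAP1-TAP2 transporter, trimmed by aminopeptidases and loaded while tapasin holds the empty molecule at the transporter. In lymphocytes, NLRC5 joins the factors bound to the S, X and Y boxes of class I promoters, and interferons and NF-kappaB act on other elements of the same promoters. Loss of class I expression is a known way in which lymphomas escape T cells.

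Promoter sequences are shown first, because these genes are known for shared control elements. RefSeq windows (GRCh38.p14, 250 bases before to 50 after the transcript start) were found for 7 of the 9 genes, all but HLA-E and NLRC5. The bases from -200 to -31 are printed for the 2 classical alpha chains and the light chain, that is chr6:31357210-31357379 (minus strand), chr6:31272123-31272292 (minus strand) and chr15:44711317-44711486 (plus strand). Capitals mark letters searched on both strands: ATTGG (core of the Y box, CCAAT on the other strand), TGACG (core of the X2 box), the interferon-stimulated response element (ISRE, GAAA and GAAA with any 2 bases between), GGGGATTCC (an NF-kappaB element) and TTTCACTT, a class I form of the ISRE that was added after the sequences were seen.
HLA-B: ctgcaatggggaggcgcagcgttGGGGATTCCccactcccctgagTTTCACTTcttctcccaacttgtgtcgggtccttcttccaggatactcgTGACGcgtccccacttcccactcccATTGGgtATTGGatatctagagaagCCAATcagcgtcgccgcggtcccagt
HLA-C: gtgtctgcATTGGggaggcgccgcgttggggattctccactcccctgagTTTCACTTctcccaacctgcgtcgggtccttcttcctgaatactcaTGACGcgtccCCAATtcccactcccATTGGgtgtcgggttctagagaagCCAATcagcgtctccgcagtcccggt
B2M: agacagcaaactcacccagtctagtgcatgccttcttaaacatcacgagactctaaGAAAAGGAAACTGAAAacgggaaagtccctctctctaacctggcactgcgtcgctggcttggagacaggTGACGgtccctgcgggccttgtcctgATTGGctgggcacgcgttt
For HLA-F (chr6:29723268-29723297, plus strand) and for TAP1 (chr6:32853819-32853848), TAP2 (chr6:32838778-32838807) and TAPBP (chr6:33314079-33314108), all on the minus strand, 30 bases around the ISRE match are printed.
HLA-F: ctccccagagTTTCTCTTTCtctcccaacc
TAP1: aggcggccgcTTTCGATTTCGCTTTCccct
TAP2: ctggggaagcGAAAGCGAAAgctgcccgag
TAPBP: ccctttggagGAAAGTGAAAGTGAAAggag
Over the 200 bases before the start, HLA-B was 87.7% identical to HLA-C and 80.8% identical to HLA-F, against 48.3% for HLA-B and B2M.

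TGACG followed by ATTGG was present in HLA-B, HLA-C and B2M, and 8.69% of all 35116 windows held both motifs in any order. In HLA-F and TAP1 the search found ATTGG without TGACG, in TAP2 TGACG without ATTGG, and in TAPBP neither. The ISRE letters matched in HLA-F, B2M, TAP1, TAP2 and TAPBP, against 3.57% of all windows. In B2M, TAP1 and TAPBP they matched at 2 overlapping positions. GGGGATTCC was found in HLA-B and in 0.285% of all windows. TTTCACTT was found in HLA-B, HLA-C and TAPBP (overlapping the ISRE match there) and in 1.62% of windows, ATTGG alone in 34.6% and TGACG alone in 24.6%. TTCNNNGAA, the gamma-activated site, matched in none of the 7 and in 7.66% of all windows. The windows held 12 (TAPBP) to 24 (TAP2) CG dinucleotides, the sites DNMT1 keeps methylated, against a median of 14 over all windows. A match describes letters in these windows and shows no binding, and DNA methylation was not measured here.

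**Figure D1:**
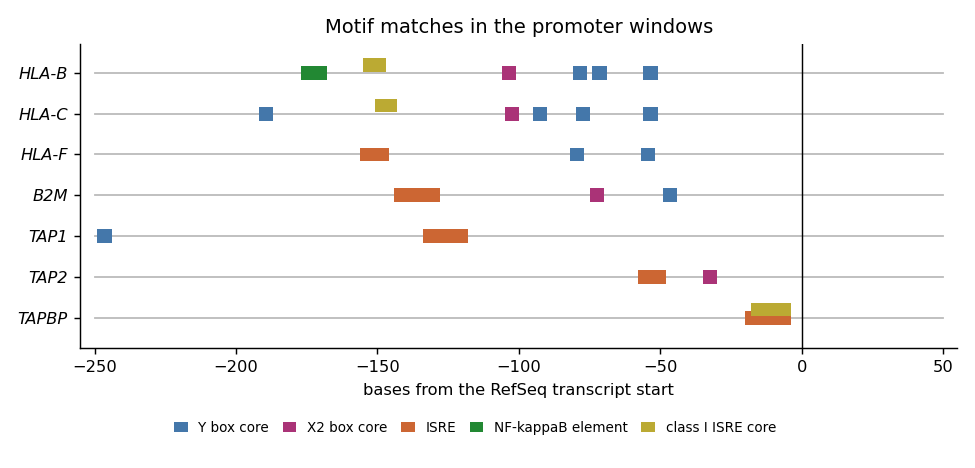
Motif matches in the RefSeq promoter windows of 7 class I presentation genes. The horizontal axis gives bases from the transcript start, each grey line is 1 gene's window and each coloured block a match on either strand; the alpha chains and B2M carry Y box cores close to the start, and ISRE matches are seen in HLA-F, B2M, TAP1, TAP2 and TAPBP.

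The 9 genes did not change in 1 direction. With the inhibitor, HLA-B, HLA-C, HLA-E and TAP2 rose, HLA-F, B2M, TAP1 and TAPBP fell, and NLRC5 was not called. The largest change was that of TAP1, which fell by 37.2%, and the largest increase that of HLA-E, by 19.4%. All 9 passed the filter on low counts. By edgeR's quasi-likelihood test at an adjusted p of 0.05, 38.1% of 20783 tested genes were higher and 27.3% lower, so 4 and 4 of 9 lie near the background. The median log2 change of the members was 0.06, against 0.14 over all tested genes, and their median change in absolute size was 0.23 against 0.67. Members are well expressed, and among the 5560 tested genes at least as abundant as HLA-F, 27.0% were higher and 53.6% lower, with a median of -0.20 and a median absolute change of 0.43. The groups did not overlap in FPKM in 8 of the 9, where 71.7% of all tested genes did not overlap.

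Changes this small depend on how libraries are scaled. With upper-quartile scaling the median log2 change over tested genes shifted by 0.17, and each member with it: HLA-F (-0.06, adjusted p = 0.460) was then not called and NLRC5 (0.23, adjusted p = 0.000675) was. No member changed direction in any of the 18 alternative analyses. Mitochondrial transcripts took 5.51% ± 0.517 of the total in DMSO libraries and 7.54% ± 0.148 in inhibitor libraries (SD, n = 3 each), and leaving these and ribosomal protein genes out changed no member's call.

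The 3 alpha chain genes HLA-B, HLA-C and HLA-E all rose. HLA-E presents leader peptides of other class I chains to the NK receptor CD94-NKG2A, while HLA-B and HLA-C are classical molecules that present antigen to T cells and bind killer-cell receptors. HLA-E (ENSG00000204592, chromosome 6, 30489509 to 30494194) measured 149, 143 and 147 FPKM under DMSO and 178, 179 and 170.3 with the inhibitor. FPKM is fragments scaled to gene length and to library size. The lowest inhibitor library lay above the highest DMSO library, and the means were 147 ± 3.1 and 176 ± 4.89 (log2 change 0.26, SE 0.042, edgeR adjusted p = 0.000419).

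HLA-C (ENSG00000204525, 31268749 to 31272130) measured 64.1, 59.4 and 65.4 FPKM under DMSO and 73.7, 70.4 and 72.4 with the inhibitor. The groups did not overlap, and DMSO replicate 2 was the lowest library (log2 change 0.19, SE 0.049, edgeR adjusted p = 0.00672). HLA-B (ENSG00000234745, 31353872 to 31367067) measured 108, 96.7 and 103 FPKM under DMSO and 116, 118 and 113 with the inhibitor. Its groups were separated by less than the spread within DMSO, where replicate 2 was again lowest (log2 change 0.17, SE 0.048, edgeR adjusted p = 0.0119). Both genes are highly polymorphic and similar to each other, so reads of this line's alleles can be lost or shared when set against a reference genome. The pseudogene HLA-H, also similar, rose from 21.4 ± 1.74 to 25.4 ± 2.03 FPKM (edgeR adjusted p = 0.0336).

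HLA-F went the other way. This nonclassical chain, which can reach the surface without peptide, is encoded at 29722775 to 29729351 (ENSG00000204642) and measured 7.46, 6.63 and 7.30 FPKM under DMSO and 5.83, 6.17 and 6.30 with the inhibitor. The highest inhibitor library (6.30) lay just under the lowest DMSO library (6.63; log2 change -0.23, SE 0.067, edgeR adjusted p = 0.0119). The call ended when testing was limited to genes reaching an FPKM of 1 (-0.14, adjusted p = 0.0987), after quantile normalization (-0.11, adjusted p = 0.112 by limma) and with inhibitor replicate 1 alone (-0.27, adjusted p = 0.0639). An unnamed gene on the opposite strand, ENSG00000225864, overlaps the start of HLA-F and rose from 0.600 ± 0.139 to 1.91 ± 0.262 FPKM (edgeR adjusted p = 0.000606). Library preparation kept strand, but the sources used here do not say whether counting used it. HLA-G, the nonclassical chain of the placenta, measured 0.00794 ± 0.0138 FPKM under DMSO and 0.101 ± 0.0266 with the inhibitor. Its groups did not overlap (0, 4 and 0 counts against 13, 8 and 13), but it was too low to be tested.

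B2M (ENSG00000166710, chromosome 15, 44711358 to 44718145), the light chain that class I alpha chains generally need to fold and reach the surface, fell by 21.6%. It measured 332, 318 and 324 FPKM under DMSO and 254, 257 and 257 with the inhibitor. Every inhibitor library lay below every DMSO library (log2 change -0.35, SE 0.035, edgeR adjusted p = 1.54e-05). By mean FPKM, B2M ranked 70 of all genes in the table under DMSO and 111 with the inhibitor. The size of the fall depended on scaling, from -0.18 with upper-quartile scaling to -0.58 under quantile normalization.

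The 4 alpha chains of the list added up to 319 ± 11.9 FPKM under DMSO and 369.8 ± 6.89 with the inhibitor, while B2M fell. The B2M level per summed alpha chain level, a ratio taken within each library and so free of library scaling, was 1.01, 1.04 and 1.003 under DMSO and 0.678, 0.689 and 0.709 with the inhibitor. All 3 inhibitor ratios were below all DMSO ratios, with a log2 difference of -0.56 (exact permutation p = 0.1, two-sided, n = 3 each, the smallest that 3 against 3 allows). Other class I alpha chain genes are not part of this sum. HLA-E made up 45.9% ± 0.768 of it under DMSO and 47.5% ± 0.474 with the inhibitor, and HLA-F 2.23% ± 0.0553 and 1.65% ± 0.0909.

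**Figure D2:**
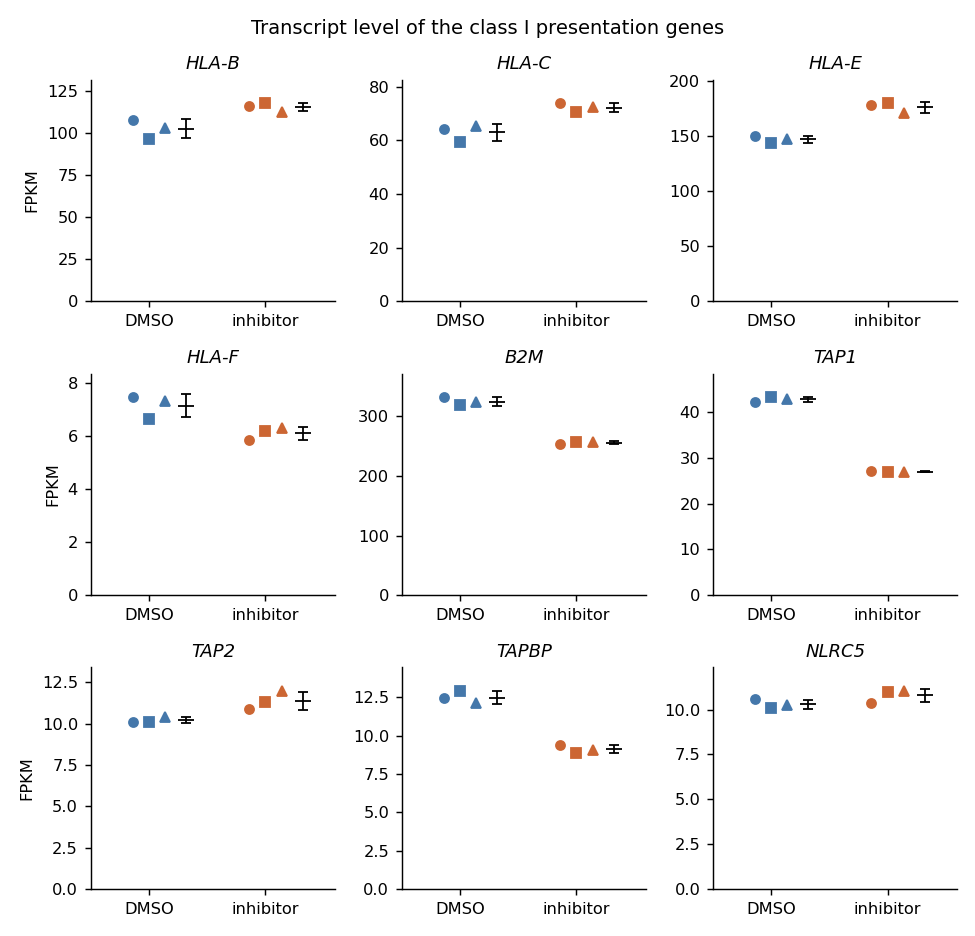
Transcript level (FPKM, each axis from 0) of the 9 class I presentation genes. Circle, square and triangle are replicates 1, 2 and 3 of DMSO (blue) and inhibitor (orange), and the black bar is the mean ± SD (n = 3); the groups overlap in NLRC5, and are farthest apart for their level in TAP1.

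The 2 subunits of the peptide transporter changed in opposite directions. TAP1 (ENSG00000168394, chromosome 6, 32845209 to 32853717) measured 42.3, 43.3 and 43.0 FPKM under DMSO and 27.3, 26.9 and 27.0 with the inhibitor. The spread within each group was small beside the gap between them (log2 change -0.67, SE 0.040, edgeR adjusted p = 4.98e-07). TAP2 (ENSG00000204267, 32821833 to 32838739) measured 10.1, 10.1 and 10.4 FPKM under DMSO and 10.9, 11.3 and 12.0 with the inhibitor. The groups did not overlap (log2 change 0.15, SE 0.043, edgeR adjusted p = 0.0116). That call ended without DMSO replicate 1 (0.13, adjusted p = 0.0598) and with inhibitor replicate 1 alone (0.11, adjusted p = 0.136).

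The TAP1 to TAP2 ratio of FPKM was 4.19, 4.30 and 4.13 under DMSO and 2.51, 2.38 and 2.26 with the inhibitor. The ranges lay apart, with a log2 difference of -0.82 (exact permutation p = 0.1, two-sided, n = 3 each, the smallest possible). TAP1 and PSMB9, an immunoproteasome subunit, are transcribed in opposite directions from neighbouring starts. PSMB9 fell as well, from 12.5 ± 1.02 to 8.05 ± 1.13 FPKM (edgeR adjusted p = 0.000306), a log2 change of -0.64. The TAP1 to PSMB9 ratio was 3.28, 3.84 and 3.26 under DMSO and 3.77, 2.88 and 3.56 with the inhibitor, and the groups overlapped (log2 difference -0.03, exact permutation p = 0.9, two-sided, n = 3 each). The sign of this difference turned when DMSO replicate 2 (0.05) or inhibitor replicate 2 (0.09) was left out, and for inhibitor replicate 1 alone (0.13). The deposited PSMB9 gene (32844136 to 32859851) spans all of TAP1 on the opposite strand, so without strand their reads could not be told apart.

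TAPBP (ENSG00000231925, 33299694 to 33314267), the tapasin that holds class I molecules at the transporter and edits their peptides, measured 12.5, 12.9 and 12.1 FPKM under DMSO and 9.43, 8.88 and 9.07 with the inhibitor. It fell by 27.2%, with every inhibitor library below every DMSO library (log2 change -0.46, SE 0.051, edgeR adjusted p = 3.38e-05). TAPBPL, a related peptide editor that works apart from the transporter, fell from 9.59 ± 0.293 to 5.50 ± 0.420 FPKM (log2 change -0.81, edgeR adjusted p = 1.20e-05).

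NLRC5 (ENSG00000140853, chromosome 16, 56989485 to 57083524), the coactivator of class I promoters, measured 10.6, 10.1 and 10.3 FPKM under DMSO and 10.4, 11.0 and 11.0 with the inhibitor. The groups overlapped, with inhibitor replicate 1 inside the DMSO range. The log2 change was 0.06 (95% interval -0.03 to 0.15, edgeR adjusted p = 0.221). It was called higher under upper-quartile scaling, given above, when testing was limited to genes reaching an FPKM of 1 (0.16, adjusted p = 0.00696) and after quantile normalization (0.23, adjusted p = 0.00195 by limma). Of 11837 other tested genes with a mean FPKM of at least 1, the 5 with the highest Pearson correlation to NLRC5 over the 6 libraries were RIMKLBP2, DPY19L2P2, RN7SKP80, ALG10B and JSRP1 (r from 0.974 to 0.986). The 6 libraries share 2 groups, and high values over so few points are a description only.

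**Figure D3:**
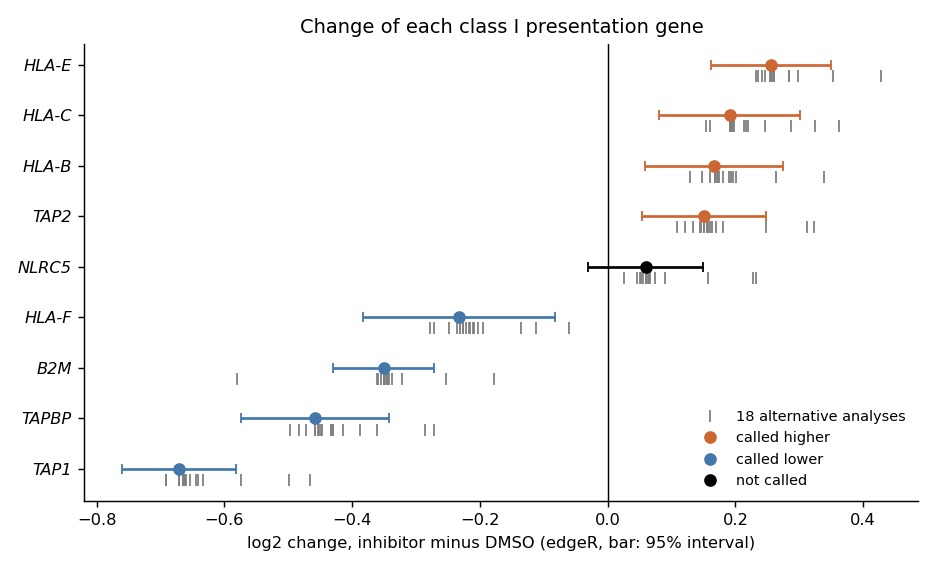
Log2 change of each class I presentation gene, inhibitor minus DMSO, by edgeR with its 95% interval. Colours give the call and grey ticks the values in the 18 alternative analyses; no tick crosses 0 for any gene, and HLA-F and NLRC5 have ticks near 0.

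The order of transcript levels changed in its lower part. With DMSO it ran B2M, HLA-E, HLA-B, HLA-C, TAP1, TAPBP, NLRC5, TAP2 and HLA-F, from 325 to 7.13 FPKM. With the inhibitor TAP2 (11.4 ± 0.557 FPKM) and NLRC5 (10.8 ± 0.381) stood above TAPBP (9.13 ± 0.278), which had led them (12.5 ± 0.406 against 10.2 ± 0.188 and 10.3 ± 0.249). NLRC5 and TAP2 overlapped in both groups, and no other neighbours in either order did. Levels of different genes rest on the length each was divided by. The ratio of count to FPKM gave 3.37 kb for B2M, 4.99 kb for HLA-B, 2.71 kb for HLA-C and 11.2 kb for TAP2, if the deposited totals were the scale. The GENCODE 29 coding transcripts of these genes marked principal or consensus coding (CCDS) have median lengths of 1.08, 1.55, 1.54 and 4.09 kb. Ratios of counts in place of FPKM gave the same differences between groups (-0.55 for B2M to alpha chains, -0.82 for TAP1 to TAP2), but the levels of B2M and HLA-B relative to HLA-C would be higher with those shorter lengths.

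**Figure D4:**
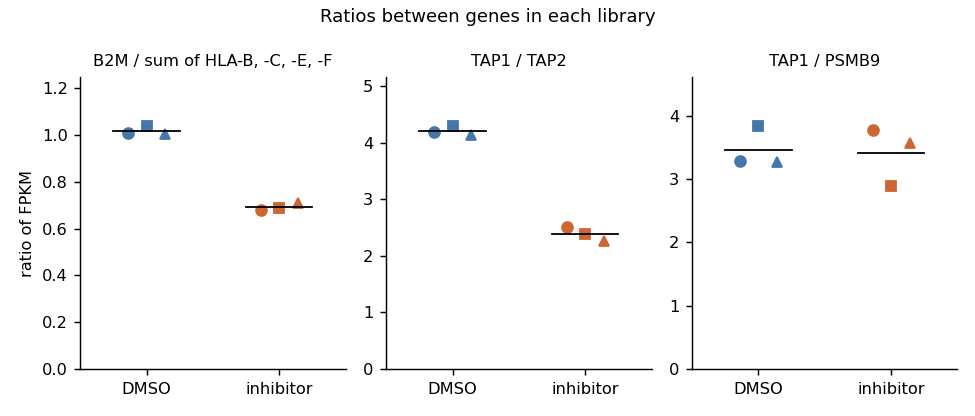
Ratios of FPKM between genes within each library, from 0, with replicates 1, 2 and 3 as circle, square and triangle and the mean as a line. The B2M to alpha chain and TAP1 to TAP2 ratios are lower in all 3 inhibitor libraries than in any DMSO library, and the TAP1 to PSMB9 ratios overlap.

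Before the transporter, most genes that cut and trim peptides fell. Of 6 immunoproteasome and activator genes 4 were lower and 0 higher (median log2 change -0.36). Over all tested genes 27.3% were lower and 38.1% higher. Among those at least as abundant as HLA-F, 53.6% were lower and 27.0% higher, so 4 of 6 lower is not far from that share. PSMB8, the subunit whose gene lies next to TAP1, fell from 31.5 ± 1.42 to 14.9 ± 0.830 FPKM (log2 change -1.08, edgeR adjusted p = 3.17e-07). PSME2, of the proteasome activator, fell from 42.5 ± 1.37 to 31.0 ± 1.74, and PSME3, its nuclear relative, from 49.5 ± 1.42 to 41.8 ± 1.57 FPKM, while PSMB10, the third immunosubunit, measured 17.6 ± 0.608 and 16.0 ± 0.815 (edgeR adjusted p = 0.0661). The constitutive catalytic subunits PSMB5, PSMB6 and PSMB7 were lower in 3 of 3, led by PSMB6 (55.6 ± 3.40 to 26.6 ± 0.378 FPKM) and PSMB7 (74.0 ± 1.26 to 45.8 ± 2.34).

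Of 8 trimming peptidases 7 were lower and 0 higher (median -0.37). The shares lower were 27.3% of all tested genes and 53.6% of those at least as abundant as HLA-F. ERAP1 and ERAP2, the aminopeptidases of the endoplasmic reticulum, fell from 6.38 ± 0.255 to 4.73 ± 0.195 and from 4.17 ± 0.214 to 2.53 ± 0.245 FPKM. LNPEP, which trims in endosomes, fell from 7.61 ± 0.650 to 4.93 ± 0.204 and BLMH, a cytosolic peptidase, from 16.8 ± 0.338 to 12.2 ± 0.690 FPKM. For each of these 4, edgeR gave an adjusted p of at most 9.95e-05. THOP1, which destroys peptides in the cytosol, was the exception and was not called (16.5 ± 0.396 and 17.6 ± 0.424 FPKM).

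Folding and loading factors split, with 4 of 9 higher and 3 lower (median 0.02), near the 38.1% and 27.3% of all tested genes. CALR, the calreticulin of the loading complex, rose from 85.7 ± 4.74 to 99.2 ± 3.08 FPKM (edgeR adjusted p = 0.00693). HSPA5, the main chaperone of the endoplasmic reticulum, rose from 36.7 ± 0.657 to 57.4 ± 1.23 and PDIA4, a disulphide isomerase, from 21.6 ± 0.768 to 30.4 ± 1.17 FPKM. GANAB, the glucosidase that prepares glycans for calnexin, fell from 72.3 ± 2.36 to 51.6 ± 1.96 FPKM. PDIA3, the partner of tapasin, measured 19.1 ± 0.377 and 18.1 ± 1.06 FPKM and was not called. Among 7 tested genes of class I transport and turnover 3 were lower and 1 higher (median -0.08). SUSD6, part of a complex that sends class I molecules to lysosomes, fell from 14.1 ± 0.685 to 7.85 ± 0.203 FPKM. SPPL3, a membrane protease that restrains the synthesis of glycolipids able to shield class I molecules, and WWP2, a ubiquitin ligase, fell by 0.22 and 0.20 on the log2 scale. TMED10, a cargo receptor, rose (log2 change 0.21), and 0 of the 7 were called higher when DMSO replicate 1 or 3 was left out. With inhibitor replicate 1 alone 0 of the 7 were higher and 1 was lower.

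**Figure D5:**
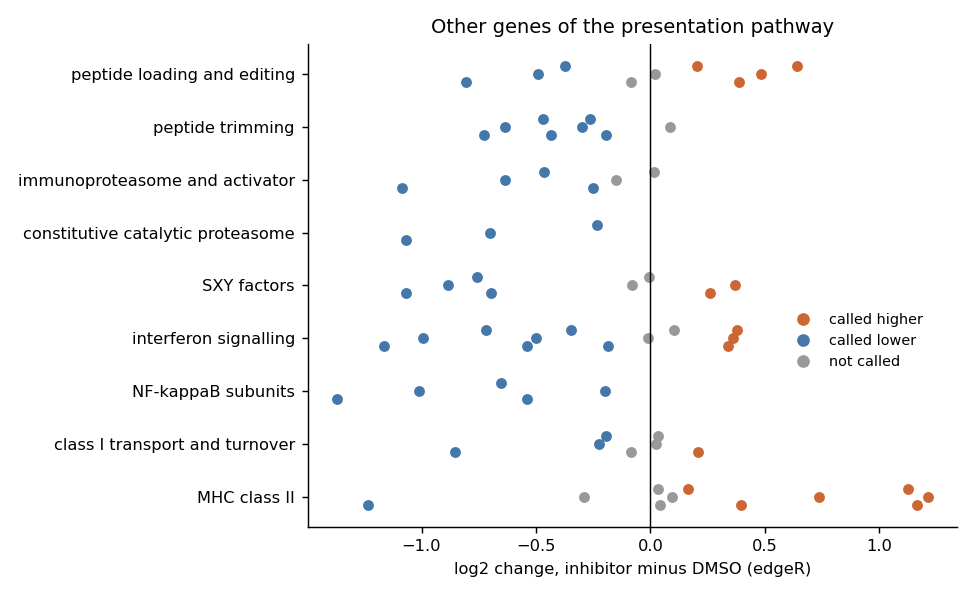
Log2 change, inhibitor minus DMSO, of tested genes in 9 lists of the presentation pathway whose mean FPKM reached 1 in a group, 1 point per gene, coloured by edgeR call. Points of the proteasome, trimming and NF-kappaB lists lie mostly below 0, and those of the MHC class II list mostly above it, with CIITA farthest below.

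Factors that act on class I promoters moved in both directions. Of 8 proteins of the S, X and Y boxes 4 were lower and 2 higher (median -0.39), near the shares among genes at least as abundant as HLA-F (53.6% lower and 27.0% higher). RFXAP fell from 17.0 ± 0.360 to 8.13 ± 0.280, NFYC from 13.0 ± 0.559 to 7.06 ± 0.130, NFYB from 8.84 ± 0.854 to 5.25 ± 0.0840 and ATF1 from 21.8 ± 0.332 to 13.5 ± 0.698 FPKM (edgeR adjusted p at most 1.61e-05). RFX5, the DNA-binding partner of RFXAP, measured 59.2 ± 1.19 and 56.3 ± 0.832 FPKM and was not called. RFXANK, the third subunit, and NFYA rose (log2 changes 0.37 and 0.26). All 5 NF-kappaB subunit genes were lower (median -0.65), led by RELB (38.5 ± 1.16 to 14.9 ± 1.40 FPKM) and NFKB2 (26.8 ± 1.59 to 13.3 ± 0.243). The shares lower were 27.3% of all tested genes and 53.6% of those at least as abundant as HLA-F. RELA fell from 19.5 ± 0.481 to 13.4 ± 0.577 FPKM, and REL, the lowest of the 5, measured 1.54, 1.59 and 0.749 FPKM under DMSO and 0.868, 0.788 and 0.819 in the inhibitor libraries, so that its groups overlapped (edgeR adjusted p = 0.0357). That count was 3 of 5 under upper-quartile scaling. It was 3 of 4 tested when testing was limited to genes reaching an FPKM of 1 and after quantile normalization. By DESeq2 and with no filter on low counts it was 4 of 5. The count was also 4 of 5 without DMSO replicate 1 or 2, and without any 1 inhibitor replicate.

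Of 14 genes of interferon signalling 7 were lower and 5 higher (median -0.10), where 27.3% of all tested genes were lower and 38.1% higher. Among the 5, SOCS3, an inhibitor of the signal, had 0 counts in every DMSO library, so it had to differ to pass the filter. IRF1 and IRF2, which bind the ISRE, fell from 13.5 ± 0.126 to 6.81 ± 0.413 and from 30.9 ± 0.879 to 13.8 ± 0.608 FPKM (edgeR adjusted p = 3.95e-07 and 5.85e-08). The receptor chains IFNAR1 and IFNAR2 fell by 0.72 and 0.54 on the log2 scale.

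MHC class II genes, which serve CD4+ T cells and share the S, X and Y boxes, were higher in 7 of 13 and lower in 1, where 38.1% of all tested genes were higher and 27.3% lower. The 1 was CIITA, the class II counterpart of NLRC5, which fell from 30.1 ± 0.421 to 12.9 ± 0.221 FPKM (log2 change -1.23, edgeR adjusted p = 1.66e-08), while CD74, the invariant chain, rose from 150.3 ± 6.24 to 350.1 ± 8.63. HLA-DPB1, a class II beta chain, rose from 14.9 ± 0.349 to 33.5 ± 2.16 and HLA-DMB, of the class II peptide editor, from 4.02 ± 0.171 to 8.82 ± 0.681 FPKM. Across the MHC, between the starts and ends of the outermost members on chromosome 6 (29722775 to 33314267), 168 other genes were tested. Of these 46 were higher (27.4%) and 46 lower (27.4%), with a median log2 change of -0.03.

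The label of the cells was checked against B-cell genes. CD79A and CD79B, the signalling chains of the B-cell receptor, were abundant in both groups: CD79A rose from 193 ± 6.12 to 294 ± 28.2 FPKM and CD79B fell from 539 ± 17.6 to 375 ± 10.2. CD22 rose from 9.90 ± 0.680 to 15.2 ± 2.30 FPKM, while MS4A1 fell from 14.03 ± 0.890 to 3.63 ± 0.779 and PAX5 from 76.0 ± 1.61 to 42.3 ± 1.22. T and NK cell markers, of which 4 of 7 were in the table, summed to 0.273 to 0.383 FPKM under DMSO and 0.990 to 1.98 with the inhibitor. The T-cell gene CD3E had 0 counts in every DMSO library and 29, 50 and 5 in the inhibitor libraries, and was too low to be tested. The 3 markers tested, CD8A, NKG7 and KLRD1, were all called higher, as were 38.1% of all tested genes. CD8A and KLRD1 had 0 counts in every DMSO library, so they had to differ to pass the filter. KLRD1 went from 0 counts to 0.256 ± 0.0395 FPKM and NKG7 from 0.320 ± 0.0567 to 0.995 ± 0.361 FPKM, and CD8A, also at 0 under DMSO, reached 0.0601 ± 0.0268. The part of these markers in the members' changes was not tested. Myeloid markers, 6 of 7 in the table, summed to 0.568 to 0.798 and 0.758 to 1.148 FPKM. In bulk RNA a change in each cell and a change in the share of cells that express a gene cannot be told apart.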

How the data were processed

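RNA was measured in 6 libraries of SU-DHL-8. Selection was for poly(A) and dUTP marked the strand, per the labels' protocols. The submitters' processing notes name edgeR, DESeq2, StringTie 2.1.6, HISAT2 2.2.1 and cutadapt 1.9, without roles, and the mouse build mm10. The gene IDs are human, however, and all 9 members overlap their GRCh38 position in GENCODE 29 (6 with the same start), so deposited coordinates were read as GRCh38.

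For every gene and library the deposited table holds 1 estimated count and 1 FPKM, as made by the authors; its headers do not define the scaling. Counts are whole but peak at 4 (1320 genes per library, against 726 at 3 and 474.5 at 5), so about 4 counts were taken as 1 read pair. Totals were 53846028 to 75304441 counts per library. Members had 1562 (HLA-F) to 79622 (B2M) counts, or 390.5 to 19905.5 read pairs; for the members with fewest pairs counting error is of the order of the replicate spread. No 2 libraries were identical.

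The main test was edgeR 4.0.16 (R 4.3.3; filterByExpr, TMM factors 0.981 to 1.02, quasi-likelihood, Benjamini-Hochberg over 20783 genes, two-sided, adjusted p of 0.05). Standard errors are the log2 change over the square root of F. The fits were tested on simulated data. Alternatives used DESeq2 1.42.0, limma 3.58.1 on log2(FPKM + 0.5), and other filters, scalings and library sets. Ratios used exact permutation tests. Members and gene lists were chosen with earlier results of these data known. Named were all members, up to 4 called genes per list with the largest change and a mean FPKM of at least 1, 11 genes fixed by name, overlapping genes, and the 5 most like NLRC5; some of these genes are not reported here. Values are mean ± SD (n = 3 per group).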

Additional observations from a re-analysis of the deposited data

How the results depend on the processing

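HLA-B, HLA-C, HLA-E, B2M, TAP1 and TAPBP kept their direction and their call in all 18 alternative analyses; HLA-F, TAP2 and NLRC5 kept their direction, and their calls differed in 4, 2 and 3 of them, as given above. Members called ranged from 3 to 5 higher and from 3 to 4 lower. With the replicate numbers of the titles as a replicate block, 4 members were higher and 4 lower, as without it; same-numbered libraries correlated at 0.0941, 0.0876 and -0.0508 in their deviations from the group means, so the numbers were not taken to pair the libraries, and not every library correlated best with its own number. Of all genes, 4826 were higher and 4414 lower when testing was limited to genes reaching an FPKM of 1; by limma on log2(FPKM + 0.5) they were 4252 and 5040, with a pseudocount of 0.1 they were 4245 and 5027, of 1 they were 4253 and 5043, and after quantile normalization 4280 and 4930. The main analysis gave 7918 and 5672 of 20783; the other fits tested 12395 genes. The TAP1 to PSMB9 difference reversed when DMSO replicate 2 (0.0476) or inhibitor replicate 2 (0.0868) was left out, and for inhibitor replicate 1 alone (0.128); it ranged from -0.107 to 0.0868 when 1 library was left out.

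Counts in small lists that moved over 1.5 times were, under upper-quartile scaling, 4 higher for the S, X and Y box factors (2 in the main analysis) and 3 higher and 1 lower for transport and turnover (1 and 3). When testing was limited to genes reaching an FPKM of 1, and with inhibitor replicate 1 alone, 1 transport gene was lower, and without DMSO replicate 1 or 3, or with inhibitor replicate 1 alone, 0 were higher. Under quantile normalization 2 transport genes were higher and 1 lower, 2 of 11 class II genes tested were lower (1 of 13) and 3 of 8 class I-like genes higher (6 of 13). By limma, 3 of 12 interferon signalling genes tested (5 of 14) and 2 of 5 pseudogenes or noncoding RNAs (4 of 10) were higher; fewer genes were tested there. Of the trimming peptidases 1 was higher (0) under upper-quartile scaling, after quantile normalization, with counts divided by 4 and when testing was limited to genes reaching an FPKM of 1, and of the immunoproteasome genes 1 (0) under the first pair. Of the T and NK cell markers, 3 of 3 tested were higher. CD8A and KLRD1 among them had to differ to pass the filter. By limma 0 were left to test, and 1 of 1 tested was higher with counts divided by 4. The cause of these shifts was not tested.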

Other observations

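Surface proteins built like class I alpha chains were tested in the same fit. Of 13 tested class I-like genes 6 were higher and 4 lower, near the 38.1% and 27.3% of all tested genes. ULBP1, a ligand of the activating NK receptor NKG2D, had 0 counts in every DMSO library and 18.6 ± 1.03 FPKM with the inhibitor, at least 1081-fold higher against a floor of 12 counts (3 read pairs) over the DMSO group (edgeR adjusted p = 8.94e-09). ULBP2, a ligand of the same receptor, rose from 0.806 ± 0.279 to 5.76 ± 0.324 FPKM. MICA and MICB, the stress-induced NKG2D ligands encoded near HLA-B, fell from 2.07 ± 0.285 to 0.910 ± 0.328 and from 13.1 ± 0.509 to 6.38 ± 0.609 FPKM (edgeR adjusted p = 0.00209 and 4.88e-06). PROCR, the protein C receptor, which has a class I fold, went from 0 counts to 2.76 ± 0.385 FPKM, at least 85.1-fold higher. Genes at 0 with DMSO could pass the filter only through their inhibitor counts, so they had to differ. MICB is named outside the rule, after its values were seen.

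Noncoding and pseudogene transcripts of the class I region were higher in 4 of 10 tested and lower in 0, where 38.1% of all tested genes were higher; with inhibitor replicate 1 alone 2 of 11 were higher. Among the 4, HCG4, had 0 counts in every DMSO library and 16, 11 and 17 with the inhibitor, so it had to differ to pass the filter. HCP5, a noncoding RNA between MICA and MICB, rose from 3.44 ± 0.207 to 5.11 ± 0.266 FPKM (edgeR adjusted p = 2.01e-05). HLA-F-AS1, which overlaps HLA-F on the other strand, measured 0.114 ± 0.0204 and 0.142 ± 0.0406 FPKM and was not called, and PSMB8-AS1, which overlaps TAP1, measured 5.17 ± 0.417 and 4.58 ± 0.112 FPKM (edgeR adjusted p = 0.168).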
